A study of Danio rerio with 48 samples.

Results

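Neuropeptide precursor genes encode the proproteins from which neurons cut and release signalling peptides, and 36 of them were followed through the whole adult brain of zebrafish (Danio rerio, AB line). The members came from a list of 36 gene names, which led to 36 of the 32520 Ensembl gene IDs listed in each library. Symbols named 23 IDs, and 5 more IDs followed from 6 names by dropping a final letter, where ccka and cckb share the symbol CCK and nucb2a and nucb2b the symbol NUCB2, which stands for 2 IDs. RefSeq synonyms added 3 IDs, listed as GAL (here galn), UCN (uts1) and UCN3 (ucn3l), and family symbols added 5, the single ID of SST and the 4 IDs of CARTPT. The match is not one name to one ID, since ccka and cckb have a single ID between them and the 4 CARTPT IDs outnumber the names cart1, cart2 and cart3. Which CARTPT ID is cart1, cart2 or cart3, which SST gene the ID holds, and which copy each CCK and NUCB2 ID is, the reference tables do not say, so these members keep the shared symbol.

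Exposed founders (F0) had met permethrin, a pyrethroid insecticide, at 10 µg/L early in life, and the F1 and F2 descendants had no exposure of their own. Each of the 3 generations held females and males from 2 sources, coded PH and SCA, with 4 libraries in each of the 12 groups. The labels do not spell the codes out; here PH stands for the permethrin lineage and SCA for controls. All fish were adults, and since no label tells tanks or parents apart within a group, a p-value covers fish-to-fish spread only.

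A neuropeptide precursor enters the secretory pathway, is cut by prohormone convertases inside dense-core vesicles, and yields 1 or more peptides that act on G protein-coupled receptors. Many of these genes are switched on in small groups of neurons of the hypothalamus and preoptic area, where they steer the pituitary, feeding, arousal and social behaviour. Others, such as NPY, SST and the enkephalin genes, are also used by interneurons of the telencephalon and elsewhere.

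Between 4802827 and 10032850 counts fell in genes in each library. Levels are given as CPM, counts per 1000000 counts in genes after scaling by TMM factors over all 48 libraries, and are not divided by gene length, so a level can be compared between libraries of 1 gene but not between genes. In bulk tissue, fewer cells of a type and less RNA per cell cannot be told apart. The pituitary was all but absent: growth hormone (gh1) averaged 0.059 CPM and was at 0 in 40 libraries, and the 14 listed pituitary genes together reached at most 21.2 CPM. Markers of hypothalamus and preoptic area, 17 transcription factor genes that hold no member, summed to 134 CPM in the lowest library and to 351 CPM in the highest. Retina and lens genes varied far more, from a sum of 9.76 CPM to 3437 CPM (F0_F_SCA 18), and their part in the values was not tested. The lane in the file names was L4 for 12 of the 16 F0 libraries and L2 for the 4 F0 control males, so that arm and lane cannot be told apart in F0 males, nor sex and lane in F0 controls. In F2 it was L2 for 2 lineage females and L3 for the other 14 libraries, and the F1 names give none.

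Of the members counted in every library, oxt, the precursor of the fish oxytocin, had the widest range, 205.7-fold. It went from 2.81 to 578 CPM, from the exposed female F0_F_PH 9 to the F1 male F1_M_PH 6. The gene avp, the vasopressin precursor, had the same 2 libraries at its ends, at 0.802 to 20.3 CPM. Among genes that act on pituitary hormone release, trh, the thyrotropin-releasing hormone gene, held within 56.7 to 135 CPM and SST, the somatostatin gene, within 28.1 to 147 CPM. Growth hormone-releasing hormone (ghrh) gave only 412 counts over all libraries. In the family of corticotropin-releasing hormone, uts1 (urotensin 1) lay within 43.6 to 91 CPM and ucn3l (urocortin 3) within 9.58 to 34.5 CPM.

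Most genes of the reproductive axis gave few counts, which limits their precision. The gonadotropin-releasing genes gnrh2, which marks midbrain neurons in fish, and gnrh3, which marks the terminal nerve and preoptic area, held 1472 and 413 counts in all. Kisspeptin genes kiss1, known from the habenula, and kiss2, from the hypothalamus, peaked at 11.4 and 8.70 CPM. Of the neurokinin B genes, tac3a stayed within 11 to 36.7 CPM and tac3b within 1.37 to 9.43 CPM.

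Of the feeding and arousal genes, npy, which drives feeding, spanned 71 to 264 CPM. The appetite gene agrp, which blocks melanocortin receptors, was at 0 in 3 libraries and reached 8.82 CPM. Melanin-concentrating hormone (pmch) spanned 0.138 to 14 CPM. The hypocretin gene hcrt, made by a small cluster of wake-promoting neurons, never passed 4.41 CPM. Galanin (galn), a peptide of feeding, sleep and male parental and sexual circuits in mammals, spanned 8.88 to 177 CPM.

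The 4 CARTPT IDs, which encode cocaine- and amphetamine-regulated transcript peptides, differed in their ranges. CARTPT (ENSDARG00000045832) lay within 36.2 to 153 CPM and CARTPT (ENSDARG00000035852) within 7.61 to 25.3 CPM, while CARTPT (ENSDARG00000070930) and CARTPT (ENSDARG00000104363) reached at most 3.60 and 2.83 CPM. The related cart4 held 2.26 to 6.75 CPM. Neuromedin U (nmu), which curbs feeding in fish, spanned 0.997 to 8.45 CPM, and qrfp, an RFamide of feeding and sleep, 2.52 to 9.98 CPM. The nucleobindin genes, source of nesfatin-1, spanned 8.35 to 22.8 CPM for NUCB2 (ENSDARG00000036291) and 72 to 166 CPM for NUCB2 (ENSDARG00000036299).

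Among opioid precursors, the enkephalin genes penka and penkb spanned 31.8 to 109.6 CPM and 39.5 to 111 CPM, and the dynorphin gene pdyn 15.3 to 79.3 CPM. Substance P and neurokinin A come from tac1 (34.5 to 114 CPM), cholecystokinin from CCK (20.4 to 93.2 CPM) and neurotensin from nts (1.37 to 9.10 CPM). The gene vip, used by clock and forebrain neurons, spanned 22.8 to 76.5 CPM. The PACAP gene adcyap1b had the narrowest fold range of the members, with a highest library 1.85 times its lowest (435 to 804 CPM). Its paralogue adcyap1a spanned 4.30 to 13.7 CPM. Over the fit of all libraries, the median biological coefficient of variation, the relative spread between fish of a group, was 26.8% for the 36 members and 19.2% for all 19062 genes. One fish stood out. The library F1_M_PH 6 held the highest of the 48 levels for 13 of 36 members and the lowest for 3, and it also had the highest sum of hypothalamus markers. The share of all genes at their highest or lowest level in that library was not counted.

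Males held more galn than females. Over all 48 libraries the lowest, median and highest levels were 8.88, 25.4 and 64.3 CPM in females and 12.9, 47.6 and 177 CPM in males. The ranges of the sexes overlapped, with 4 of 24 males above the highest female and 23 of 24 females above the lowest male. Of 24 males 21 lay above the female median, and 1 of 24 females lay above the male median. Means were 25.6 ± 10.4 and 55 ± 34.6 CPM (SD, n = 24 each), and females minus males gave a log2 fold change of -1.06 ± 0.17 (SE, edgeR quasi-likelihood test, adjusted p = 4.61e-05). Males had the higher mean in 6 of 6 pairings of generation and arm. The generations gave -1.0 (F0), -1.14 (F1) and -0.99 (F2), with adjusted p-values of 0.0178, 0.0713 and 0.23, and a test of whether it differed between generations gave an adjusted p of 0.972 (edgeR, added after the data were seen). Between generations 0 members differed in their sex difference (0.105% of all genes), and 0 between the arms (0%), with 4 and 1 at an unadjusted p under 0.05 (14.1 and 4.5% of genes).

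The 24 control fish showed the difference by generation. The F0 control females lay at 18.1, 20.9, 25.6 and 18.1 CPM and the F0 control males at 80.6, 25.9, 34.6 and 30.6 CPM. In F1 the control females lay at 21.4, 30.3, 29.7 and 26.7 CPM and the control males at 77.3, 58.2, 24.9 and 40.2 CPM. The F0 groups did not overlap, though the nearest fish almost met, and the F1 groups overlapped through the male F1_M_SCA 10. How many of all genes separate the F0 control sexes was not counted, and those males were on lane L2 and those females on L4. In F2 the control females lay at 29.6, 19.9, 27.9 and 8.88 CPM and the control males at 56.4, 12.9, 54.4 and 62.6 CPM, where 3 males stood above every female and F2_M_SCA 5 lay below 3 of the 4 females. The sex difference did not differ between the arms past the threshold (difference -0.08 ± 0.35 log2 units, edgeR adjusted p = 1).

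**Figure D1:**
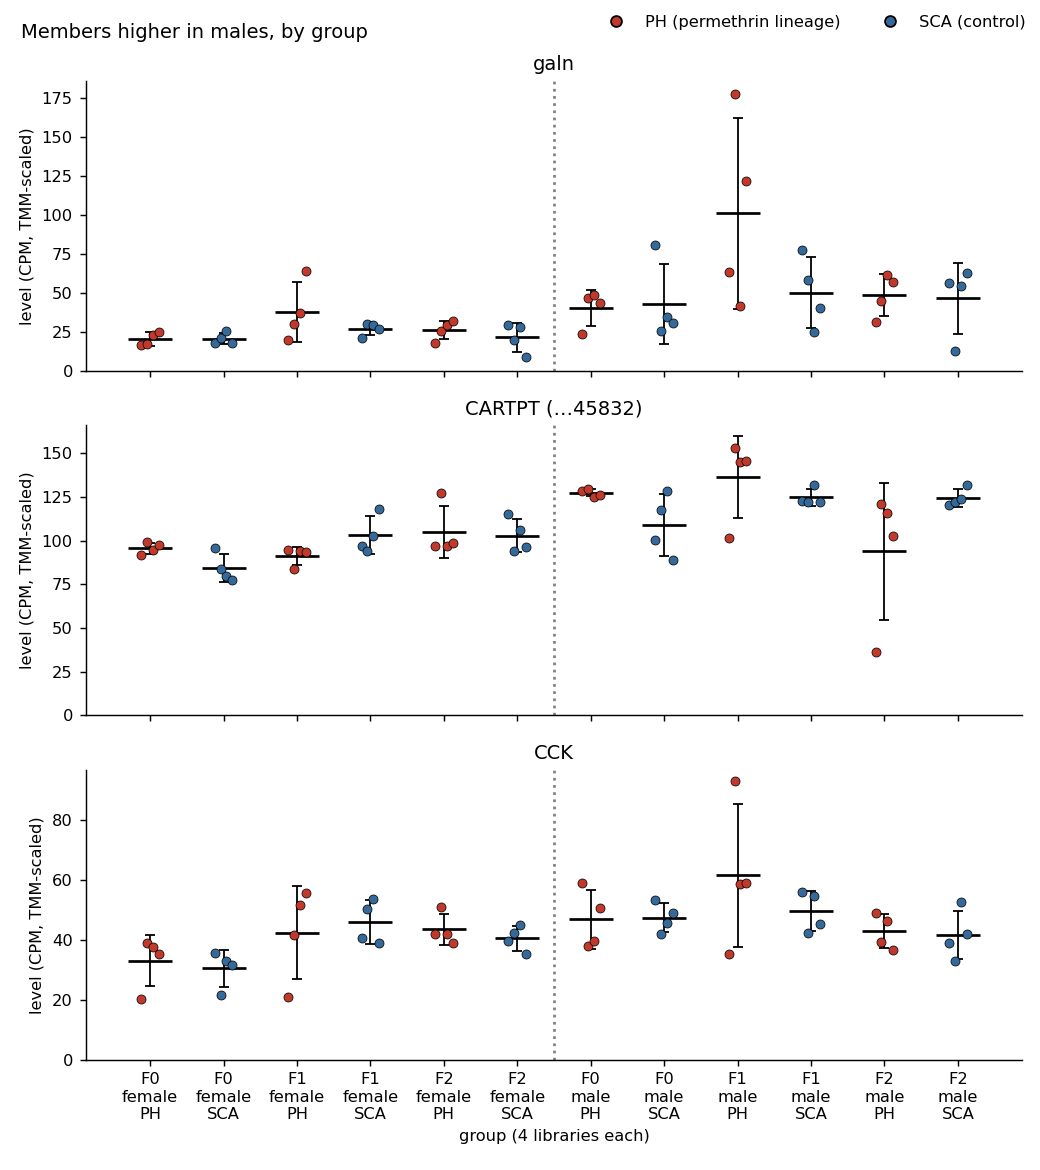
Level in CPM (y axis, TMM-scaled, from 0) of galn, CARTPT (ENSDARG00000045832) and CCK in each of the 48 libraries, by group (x axis, females left of the dotted line, males right). Points are libraries (PH red, SCA blue), thick bars group means and whiskers 1 SD (n = 4). For galn 21 of 24 males lie above the female median, and the F2 male at 36.2 CPM is the lowest point for the CARTPT gene.

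CARTPT (ENSDARG00000045832) was also higher in males. Its lowest, median and highest levels were 77.7, 96 and 127 CPM in females and 36.2, 123 and 153 CPM in males. Of 24 males 22 lay above the female median and 8 above the highest female, while the lowest of all 48 libraries was also a male, F2_M_PH 11. The fold was -0.29 ± 0.07 (SE, edgeR adjusted p = 0.0051), and -0.34 with an adjusted p of 7.67e-07 without that male. By generation it was -0.37 in the founders (edgeR adjusted p = 0.00522), -0.41 in F1 (0.0169) and -0.06 in F2 (0.973). The F2 value was -0.19 (adjusted p = 0.434) without F2_M_PH 11, the male at 36.2 CPM. The difference between generations did not pass (adjusted p = 0.41, and 0.346 without F2_M_PH 11). In F0 females of the permethrin lineage the levels were 91.8, 99, 94.9 and 97.3 CPM. In F0 males of that lineage they were 129, 129, 125 and 126 CPM, with no overlap. The share of all genes that separate the sexes within that arm was not counted. The F0 controls did overlap, at 77.7 to 95.65 CPM in females and 89.15 to 128.6 CPM in males. Over both arms of F0, 0 of 35 members separated the sexes, against 1.29% of all genes.

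CCK was the third member called between the sexes. Females ranged from 20.4 to 55.8 CPM around a median of 39.3 CPM, and males from 33 to 93.2 CPM around 46 CPM. The fold was -0.30 ± 0.09 (SE, edgeR adjusted p = 0.0329). By generation means were 31.8 and 47.2 CPM in F0 females and males (-0.55, adjusted p = 0.037), 44.2 and 55.5 CPM in F1 (-0.30, 0.393) and 42 and 42.2 CPM in F2, and the difference between generations did not pass (adjusted p = 0.367). The call was lost when any 1 of 5 libraries was left out, F0_M_PH 12, F0_F_SCA 15, F1_M_PH 6, F1_M_SCA 10 or F2_M_SCA 7 (adjusted p from 0.0504 to 0.0618). It was also lost without 8 libraries that stand apart in their markers or members (adjusted p = 0.095), F0_F_PH 9, F0_F_SCA 18, F0_M_PH 12, F0_M_SCA 6, F1_F_PH 1, F1_M_PH 6, F2_F_SCA 8 and F2_M_PH 11, chosen after the data were seen. In F0 alone, leaving out 1 library lost the call in 9 of 16 cases. CCK also followed the hypothalamus markers across libraries and ran against the telencephalon markers, as given further on. Median sex differences were -0.01 log2 units for 14 hypothalamus markers and 0.06 for 13 telencephalon markers, with 0 called. For 13 cerebellum markers the median was -0.02, with 1 called lower in females. That pooled median held opposite signs, at -0.13 in F0, 0.33 in F1 and -0.27 in F2. F2_M_PH 11, the lowest library for CARTPT (ENSDARG00000045832), had the highest sum of cerebellum markers, 6035 CPM. Retina and lens genes had a median of 0.76, with 13 of 14 higher in females and 0 called. The part of these lists in the sex differences of galn, CARTPT (ENSDARG00000045832) and CCK was not tested.

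These 3 of 36 members (8.33%) passed between the sexes over all libraries, all higher in males, against 8.71% of 19062 genes called in either direction and 5.88% called higher in males. In F0 the same 3 of 35 passed, against 4.85% of genes, in F1 only CARTPT (ENSDARG00000045832) of 36, against 3.45%, and in F2 0 of 34, against 0.114%. Among the 8 F0 fish of the PH arm, all on lane L4, 0 passed, with 3 at an unadjusted p under 0.05 (9.63% of genes), a comparison with fewer fish that was added after the data were seen. Its folds were -0.97 for galn (edgeR adjusted p = 0.281), -0.39 for CARTPT (ENSDARG00000045832) (0.141) and -0.47 for CCK (0.446). In F2 DESeq2 called 2, galn and vip, and limma voom 0, and 5 members had an unadjusted p under 0.05 (9.11% of genes). The median fold of the members was -0.11 and that of all genes 0.01, and 25 of 36 members had a fold below 0, while 52.5% of all genes had one above 0. The substance P gene tac1 (-0.25 ± 0.08, adjusted p = 0.0518) and the enkephalin gene penkb (-0.25 ± 0.09, adjusted p = 0.0561) missed the threshold (edgeR). DESeq2 called both. Leaving out F1_M_PH 4 or F2_M_SCA 5 brought both under it, and tac1 passed in 11 of the 48 such fits.

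No member was called higher in females. The 4 of smallest p in that direction were nmu (0.37 ± 0.16, SE, edgeR adjusted p = 0.164), vip (0.18 ± 0.08, 0.2), pmch (0.56 ± 0.30, 0.282) and agrp (0.48 ± 0.39, 0.52). For vip the lowest, median and highest levels were 33.6, 46.6 and 55.4 CPM in females and 22.8, 38.1 and 76.5 CPM in males. Females were the more even sex, and the highest male was F1_M_PH 6. Without the 8 libraries that stand apart, vip passed, at 0.28 with an adjusted p of 0.0112. For pmch the male maximum was 8.56 CPM and the female maximum 14 CPM, with medians of 3.94 and 6.31 CPM.

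Against its control, the permethrin lineage had 0 members called in any of the 6 contrasts of 1 sex and generation (edgeR). Of all genes, 0% were called in each sex of F0, 0.0663% in F1 females, 0.105% in F1 males, 0.137% in F2 females and 0.0171% in F2 males. At an unadjusted p under 0.05 there were 0 of 35 members in F0 females (5.09% of all genes), 7 of 35 in F0 males (6.06%), 0 of 36 in F1 females (7.94%), 12 of 36 in F1 males (8.94%), 1 of 34 in F2 females (20.9%) and 2 of 34 in F2 males (8.81%). DESeq2 called SST and CARTPT (ENSDARG00000035852) in F1 males and none in the other 5 contrasts, and limma voom called none in the 6. Member medians were -0.13, -0.09, -0.05, 0.29, 0.08 and 0.03 log2 units in the same order, with all-gene medians between -0.02 and 0.02. In that order too, retina and lens genes had medians of -1.85, -0.35, -1.60, -0.40, -1.08 and -1.74, with 0 called. Their means were higher in the lineage for 0 of 13, 2 of 13, 1 of 11, 1 of 11, 2 of 12 and 1 of 12 genes, and their part was not tested. The filter on low counts left out gnrh3 in F0 and CARTPT (ENSDARG00000070930) and CARTPT (ENSDARG00000104363) in F2.

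**Figure D2:**
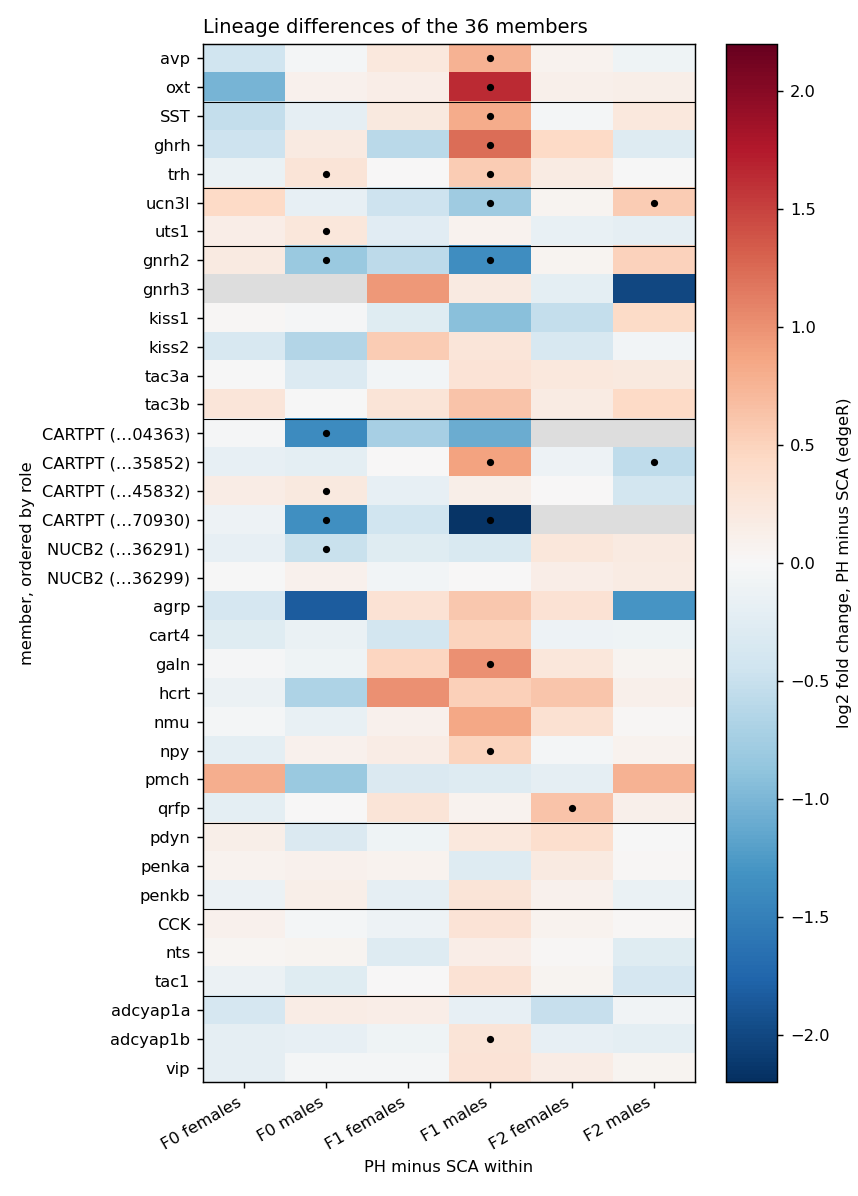
Log2 fold change of PH minus SCA (colour, edgeR; grey where the filter on low counts left the gene out) for the 36 members (rows, ordered by role, lines between roles) in the 6 contrasts of generation and sex (columns). Dots mark an unadjusted p under 0.05, of which 12 lie in F1 males; no cell passed an adjusted p of 0.05.

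In exposed F0 females, CARTPT (ENSDARG00000045832) had the smallest p among higher members and adcyap1b among lower ones. CARTPT (ENSDARG00000045832) lay at 91.8, 99, 94.9 and 97.3 CPM in exposed females and at 95.7, 83.9, 79.7 and 77.7 CPM in control females, 1 of which lay among the exposed. The fold was 0.17 ± 0.09 (SE, edgeR adjusted p = 0.994). The PACAP gene adcyap1b lay at 435, 436, 529 and 589 CPM against 500.3, 637, 616 and 514 CPM, overlapping groups with a fold of -0.20 ± 0.11. Only ucn3l separated the groups (3.53% of all genes did so), at 20.8, 25, 32.8 and 20.4 CPM against 20.2, 16.5, 19.6 and 16 CPM, with the nearest fish almost level and a fold of 0.44 ± 0.26 that did not pass (adjusted p = 1). The oxytocin gene was listed at 82.8, 2.81, 113 and 148 CPM in exposed and 215, 98.7, 214 and 164 CPM in control females. The exposed female at 2.81 CPM, F0_F_PH 9, was far below the rest and was also lowest of all libraries for avp, SST, npy and ghrh. It had the lowest telencephalon score of its group, at -0.83 log2 units, and a hypothalamus score of 0.13, each the median of the list's genes relative to the group mean; their part in these values was not tested. In exposed F0 females 3 of 13 telencephalon markers had higher means (median -0.24 log2 units) and 0 of 13 retina and lens genes did (median -1.85), with 0 called.

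In exposed F0 males the smallest p among higher members was that of trh, at 72.2, 81, 89.3 and 73.2 CPM against 75.5, 62.1, 63.3 and 56.7 CPM in control males. Control F0_M_SCA 2 lay among the exposed, and the fold of 0.28 ± 0.11 did not pass (SE, edgeR adjusted p = 0.794). NUCB2 (ENSDARG00000036291) had the smallest p among lower members, at 13.5, 12.9, 13.5 and 15.5 CPM against 16.7, 19.7, 18.2 and 22.2 CPM. All 4 exposed males lay below all 4 controls, the only member of 35 to separate there (3.55% of all genes), yet the fold of -0.49 ± 0.16 did not pass (adjusted p = 0.734). The other members at an unadjusted p under 0.05 were CARTPT (ENSDARG00000045832) and uts1, both higher, and gnrh2, CARTPT (ENSDARG00000070930) and CARTPT (ENSDARG00000104363), all lower in exposed males. All exposed males were on lane L4 and all control males on L2, so arm and lane cannot be told apart here. Of the hypothalamus markers, 2 of 12 had higher means in exposed males (median -0.26 log2 units), as did 2 of 13 cerebellum markers (median -0.16) and 5 of 13 telencephalon markers (median -0.14), with 0 called, and their part was not tested.

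In F1 females of the lineage the smallest p among higher members belonged to hcrt, at 1.37, 1.24, 2.03 and 1.55 CPM against 0.336, 0.873, 1.05 and 0.795 CPM. The groups did not overlap (1 of 36 members, 5.54% of all genes), but hcrt had few counts and the fold of 1.01 ± 0.50 did not pass (SE, edgeR adjusted p = 0.646). Among lower members uts1 had the smallest p, at 64.3, 43.6, 50.7 and 58.1 CPM against 75.5, 58.5, 60.5 and 61.3 CPM, overlapping groups with a fold of -0.26 ± 0.14.

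Of the 6 contrasts F1 males held the largest spread of folds, from -2.17 to 1.63, and 27 of 36 members had higher means in the lineage, where 47.7% of all genes did. SST lay at 97.2, 147, 80.9 and 105 CPM in lineage males and at 64.3, 71.7, 38 and 70.2 CPM in control males. All 4 lineage males stood above all 4 controls, with F1_M_PH 6 the highest and F1_M_SCA 10 the lowest. The fold of 0.81 ± 0.19 (SE, edgeR) had an adjusted p of 0.128, and of 0.363 with a fold of 0.63 without F1_M_PH 6. DESeq2 gave 0.82 with an adjusted p of 0.00661.

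CARTPT (ENSDARG00000035852) lay at 21.3, 16.4, 13.8 and 15.2 CPM in F1 lineage males and at 8.97, 9.43, 7.61 and 10.1 CPM in controls, again with no overlap (fold 0.89 ± 0.22, SE, edgeR adjusted p = 0.156). CARTPT (ENSDARG00000070930) went the other way, at 1.04, 0.126, 0.471 and 0.582 CPM against 1.37, 3.60, 2.85 and 2.61 CPM. The groups were apart, at low counts, and the fold was -2.17 ± 0.56 (adjusted p = 0.175; 0.0498 in a fit of all 48 libraries). Together with adcyap1b (0.29), 4 of 36 members did not overlap in F1 males, against 4.43% of all genes.

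The oxytocin gene lay at 346, 578, 108 and 259 CPM in F1 lineage males and at 168, 102, 111 and 33 CPM in controls. In all, 3 of 4 lineage males stood above every control and F1_M_PH 7 lay among the controls, so the groups overlapped. The fold of 1.63 ± 0.54 had an adjusted p of 0.364 (edgeR). The midbrain gene gnrh2 lay at 2.50, 1.26, 5.89 and 1.40 CPM against 5.70, 10.9, 6.89 and 5.22 CPM, a fold of -1.37 ± 0.44 (adjusted p = 0.308), with F1_M_PH 7 again among the controls. Other members at an unadjusted p under 0.05 were trh (0.56), npy (0.48), avp (0.77), galn (1.0) and ghrh (1.23), all higher, and ucn3l (-0.78), lower. For ucn3l the lineage males lay at 10.1, 9.58, 12.5 and 26.7 CPM and the controls at 26.4, 17.5, 26.1 and 30.5 CPM, so that 3 of 4 lineage males lay below every control. Of the 12, 9 were higher (3.92% of all genes) and 3 lower (5.02%). Leaving out F1_M_PH 6 gave 9 members at that threshold, and leaving out F1_M_PH 4 gave 16.

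**Figure D3:**
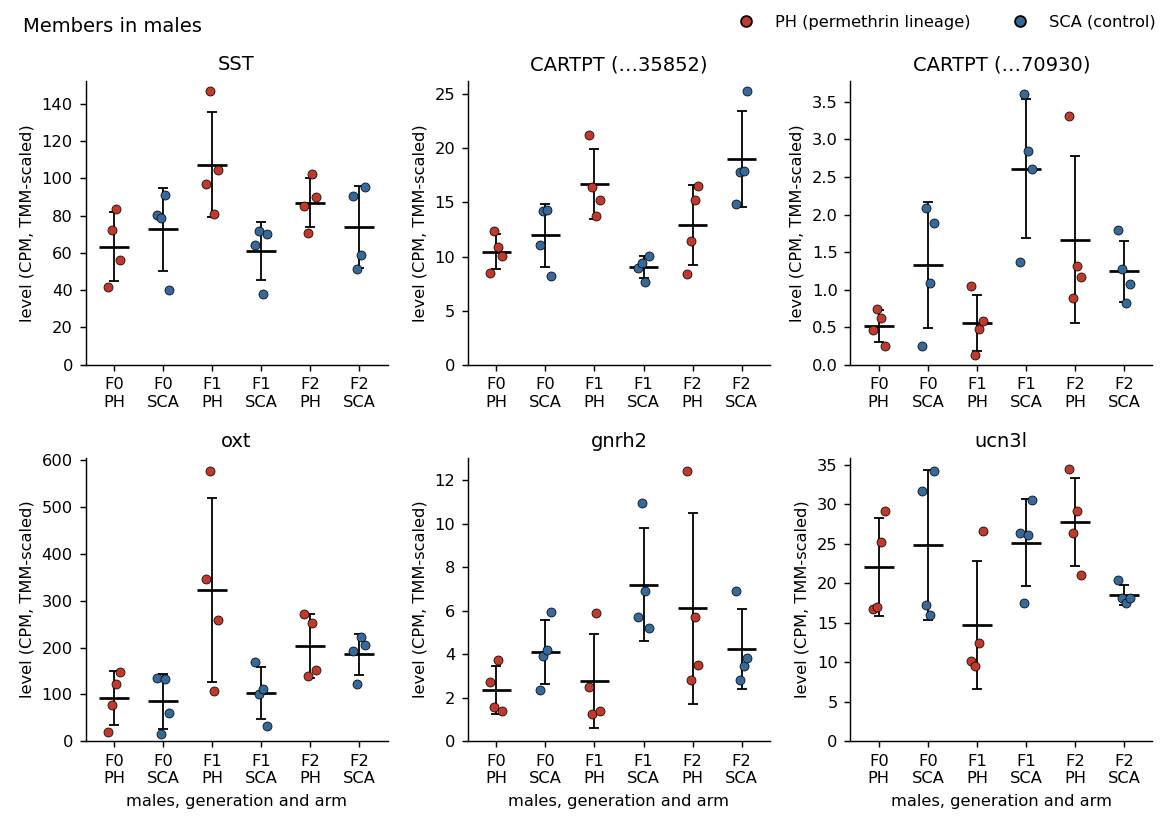
Level in CPM (y axes, TMM-scaled, from 0) of 6 members in males by generation and arm (x axes). Points are libraries (PH red, SCA blue), thick bars means and whiskers 1 SD (n = 4). SST and both CARTPT genes separate the arms in F1 males, and CARTPT (ENSDARG00000035852) has its higher mean in the lineage in F1 and in the controls in F2.

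Region markers also had unequal means in the arms of F1 males. Of the hypothalamus and preoptic markers, 13 of 13 tested had higher means in lineage males, with a median of 0.40 log2 units and 0 called. The telencephalon list had 10 of 13 genes above 0 (median 0.34), and the cerebellum list 1 of 13 (median -0.87, 8 at an unadjusted p under 0.05, 0 called). Summed cerebellum markers ranged from 2392 to 3797 CPM in lineage males and from 3382 to 4732 CPM in controls. Summed hypothalamus markers ranged from 171 to 351 CPM and from 147 to 226 CPM, and telencephalon markers from 395 to 676 CPM and from 267 to 539 CPM. Their part in the members' differences was not tested.

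In F2 females qrfp had the smallest p among higher members, at 7.55, 6.26, 7.40 and 6.58 CPM against 3.51, 3.86, 3.74 and 6.62 CPM. Of the controls, 3 lay below every lineage female and F2_F_SCA 9 lay among them. The fold was 0.63 ± 0.20 (SE, edgeR adjusted p = 0.133), and 0.87 with an adjusted p of 0.0339 without that control. Without the 2 lineage females on lane L2 it was 0.64 (adjusted p = 0.342). The PACAP gene adcyap1a had the smallest p among lower members, at 6.01, 5.38, 7.99 and 5.83 CPM against 7.39, 9.57, 11.8 and 6.17 CPM, overlapping groups, and 0 of 34 members separated there (9.17% of all genes). Hypothalamus markers were higher in lineage females in 12 of 13 genes, with a median of 0.37 log2 units and 0 called, and their part was not tested. In F2 males ucn3l lay at 34.5, 26.3, 29.1 and 21 CPM against 20.4, 18.1, 17.5 and 18.2 CPM, with no overlap (1 of 34 members, 4.64% of all genes) and a fold of 0.57 ± 0.23 that did not pass (adjusted p = 0.476). Cerebellum markers had a median of 0.41 log2 units there, with 0 called, and their part was not tested.

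CARTPT (ENSDARG00000035852) had fold changes of opposite sign in F1 and F2 males. In F2 lineage males it lay at 8.35, 11.5, 15.2 and 16.5 CPM and in F2 control males at 14.9, 17.9, 17.9 and 25.3 CPM, a fold of -0.56 ± 0.21 against 0.89 in F1 and -0.21 in F0. The joint test of whether the male contrast differed between generations had a p of 0.000118 and just missed after adjustment over 19062 genes (edgeR adjusted p = 0.0522). It passed with RLE size factors and with DESeq2, and in 18 of the 48 fits that left out 1 library. No member passed that test in either sex, against 0.21% of all genes in males and 0.178% in females, while 9 of 36 had an unadjusted p under 0.05 in males (9.26% of all genes) and 0 in females (11.4%). DESeq2 called 1 in males and 0 in females.

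Taking both sexes of a generation together, 0 members were called in F0, F1 or F2 (edgeR), against 0, 0.68 and 1.1% of all genes, with 4, 12 and 4 at an unadjusted p under 0.05 (7.46, 11.4 and 23.7% of genes). SST came nearest in F1, at 0.51 ± 0.13 with an adjusted p of 0.0894, and DESeq2 called it, its only call over the 3 generations. In the test of whether the arm difference differed between the sexes, 0 members were called in F0, F1 or F2 (edgeR). Of all genes 0, 0 and 0.0114% were called, and 2, 6 and 0 members had an unadjusted p under 0.05 (3.2, 5.11 and 5.67% of genes). DESeq2 called 0 in each. Over both sexes of F1 and F2, 0 of 36 members were called, against 4.61% of all genes, with 7 at an unadjusted p under 0.05 (24.5% of genes) and 0 called by DESeq2. The 3 of smallest p were trh (0.19 ± 0.08, adjusted p = 0.115), SST (0.31 ± 0.12, 0.119) and qrfp (0.29 ± 0.12, 0.144). Hypothalamus markers had 13 of 14 genes above 0 in that contrast, with a median of 0.30 and 0 called, and their part was not tested.

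Of the 33 members tested throughout, 6 had higher means in the lineage in each of the 4 descendant contrasts: oxt, galn, hcrt, nmu, qrfp and tac3b (10.9% of 17051 genes did so). None was lower in all 4 (13.4% of genes), and no member kept 1 sign in all 6 lineage contrasts (4.28% of genes kept a positive and 4.61% a negative sign). For hcrt, F2 males lay at 0.294 to 4.41 CPM in the lineage (mean 1.66) and 1.275 to 1.93 CPM in controls (mean 1.49). The higher lineage mean there rested on F2_M_PH 11, at 4.41 CPM. The F2 male means were also close for nmu, 3.31 and 3.24 CPM, and for galn, 48.7 and 46.6 CPM.

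Genes that process and receive these peptides were read from lists of 19 processing and secretion genes, 69 receptor IDs and 32 further precursor IDs. In the 6 lineage contrasts none of them was called (edgeR). At an unadjusted p under 0.05 there were at most 5 of any list in a contrast, with 5 of 25 further precursors higher in F1 males (20%, against 3.92% of all genes) and 5 of 34 receptors lower in F2 females (14.7%, against 11.7%). Over both sexes of F1 and F2, 2 of 18 tested processing genes were lower and 0 higher, against 2.26 and 2.35% of all genes. PCSK1, the prohormone convertase that makes the first cuts in many precursors, ranged from 5.62 to 25.2 CPM around a median of 9.82 CPM in the lineage and from 3.88 to 58.9 CPM around 20.9 CPM in controls (n = 16 each). The ranges overlapped, with controls reaching far higher, and the fold was -1.09 ± 0.30 (SE, edgeR adjusted p = 0.032). PTPRN (ENSDARG00000077047), a membrane protein of dense-core vesicles, was also lower, with medians of 30.3 CPM in the lineage and 45.7 CPM in controls (-0.61 ± 0.18, adjusted p = 0.0424). Of 49 tested receptors, the melanocortin receptor MC5R (ENSDARG00000031348) was called lower (-0.47 ± 0.13, adjusted p = 0.0242) and none higher; 1 of 49 (2.04%) is near the share of all genes called lower (2.26%). In this contrast 0 of 14 retina and lens genes had a higher mean in the lineage (median -1.18 log2 units, 0 called), and 13 of 14 hypothalamus markers did, and their part in these 3 values was not tested. None of the 26 other precursors was called in that contrast, with 1 at an unadjusted p under 0.05.

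Between the sexes over all libraries, 3 of 18 processing genes were lower in females and 0 higher, against 5.88 and 2.83% of all genes. They were the secretory granule protein chga (-0.25 ± 0.07, edgeR adjusted p = 0.022), the convertase inhibitor pcsk1nl (-0.13 ± 0.04, 0.0218) and the vesicle priming gene cadpsb (-0.14 ± 0.03, 0.00506). The sexes overlapped widely, with chga at 126 to 322 CPM in females and 170 to 332 CPM in males. Likewise pcsk1nl lay at 689 to 1247 and 660 to 1294 CPM, and cadpsb at 353 to 480 and 353 to 543 CPM. By generation 2 of 18 were called lower in F0 (chga and pcsk1nl), 1 in F1 (cadpsb) and 0 in F2. Of all genes 2.84, 1.48 and 0.08% were called lower there. CRH (ENSDARG00000027657), the corticotropin-releasing hormone gene, was also lower in females, at 35.2 ± 3.67 against 39.5 ± 8.21 CPM (SD, n = 24 each; -0.15 ± 0.05, adjusted p = 0.0396). Its range in males, 27.2 to 67.1 CPM, spanned that in females, 29.1 to 44.1 CPM. Of 26 further precursors tested it was the 1 called, where 5.88% of all genes were called lower. No receptor was called over all libraries. In this contrast 13 of 14 retina and lens genes were higher in females (median 0.76 log2 units, 0 called), and their part was not tested. In F1 the receptor of the CRH peptide, CRHR1, was higher in females (1.15 ± 0.20, edgeR adjusted p = 0.0117). It lay at 5.57 to 13.7 CPM in 8 females and 2.71 to 4.96 CPM in 8 males. The sexes did not overlap, as for 0.37% of all genes. Of 38 tested receptors it was the 1 called, where 1.97% of all genes were called higher. Retina and lens genes had a median of 2.02 log2 units in that contrast, with 5 of 11 called higher in females, and their part was not tested. Neuropeptide B (npb) was lower in F1 females, at 60.1 to 91.2 CPM against 89.2 to 168.7 CPM in males (-0.62 ± 0.10, edgeR adjusted p = 0.00847). It was the 1 called of 25 further precursors tested there, where 1.48% of all genes were called lower. In F0 the relaxin-3 gene rln3a was higher in females, at 9.94 to 23.8 CPM against 5.61 to 16.5 CPM (0.93 ± 0.20, edgeR adjusted p = 0.0132). It was the 1 called of 24 further precursors tested there, where 2.01% of all genes were called higher. In this F0 contrast, which also called chga and pcsk1nl, all females and the lineage males were on lane L4 and the control males on L2. The part of the lane in these values was not tested.

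Members also covaried from brain to brain within groups. Each member's log2 level, with its group mean removed, was correlated over 48 libraries with the median of 14 hypothalamus and preoptic transcription factor genes. Adjusted over all 19048 genes tested the same way, 9 of 36 members passed (25%), all positively, against 0.268% of all genes (permutation test within groups, two-sided, 100000 permutations; the adjustment over all genes was added after the data were seen). The dynorphin gene pdyn followed the markers most closely, with a Pearson r of 0.877 and Spearman's rho of 0.812 (permutation p = 1e-05 for both, the smallest the permutations can give; adjusted p = 0.0119). CCK (r = 0.843), nts (0.785), tac3a (0.76), tac1 (0.747), nmu (0.743) and agrp (0.74) came next, then kiss2 (0.668) and pmch (0.646), with adjusted p-values up to 0.0346. For pdyn r was 0.866 in F0, 0.911 in F1 and 0.818 in F2, so it held within each generation. Other passing members varied more, and the lowest values were 0.439 for kiss2 in F2, 0.494 for tac3a in F0 and 0.504 for nmu in F0. Without the 2 libraries farthest from the median of the markers, F1_F_PH 1 and F1_M_PH 4, pdyn had an r of 0.814.

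The other 27 members did not pass with the hypothalamus markers over all genes. Adjusted over the 36 members alone, which were chosen with earlier results known, 6 more would pass, penka (r = 0.558), galn (0.52), avp (0.478), trh (0.41), vip (0.387) and CARTPT (ENSDARG00000035852) (-0.435), with all-gene adjusted p-values from 0.137 to 0.605 (permutation test). For oxt r was 0.268 and rho 0.417 (permutation test, adjusted p of r = 0.963), and for hcrt r was 0.28 (0.792). Against 13 telencephalon markers, a relation added after the data were seen, 8 of 36 members passed over all genes (22.2%, against 3.2% of all genes). The 6 positive ones were adcyap1b (r = 0.702), SST (0.667), npy (0.653), tac3b (0.601), CARTPT (ENSDARG00000035852) (0.571) and ghrh (0.565), and the other 2 were negative, CCK (-0.481) and penka (-0.501). Against cerebellum markers 2 of 36 passed (5.56%), near the 6.68% of all genes: ucn3l (r = 0.725, rho 0.695, permutation test, adjusted p = 0.00149) and adcyap1b (-0.488, adjusted p = 0.0423). Levels are relative to the counts of each library, so the relations to several regions cannot be taken as independent of each other. How the region scores relate to each other was not tested.

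**Figure D4:**
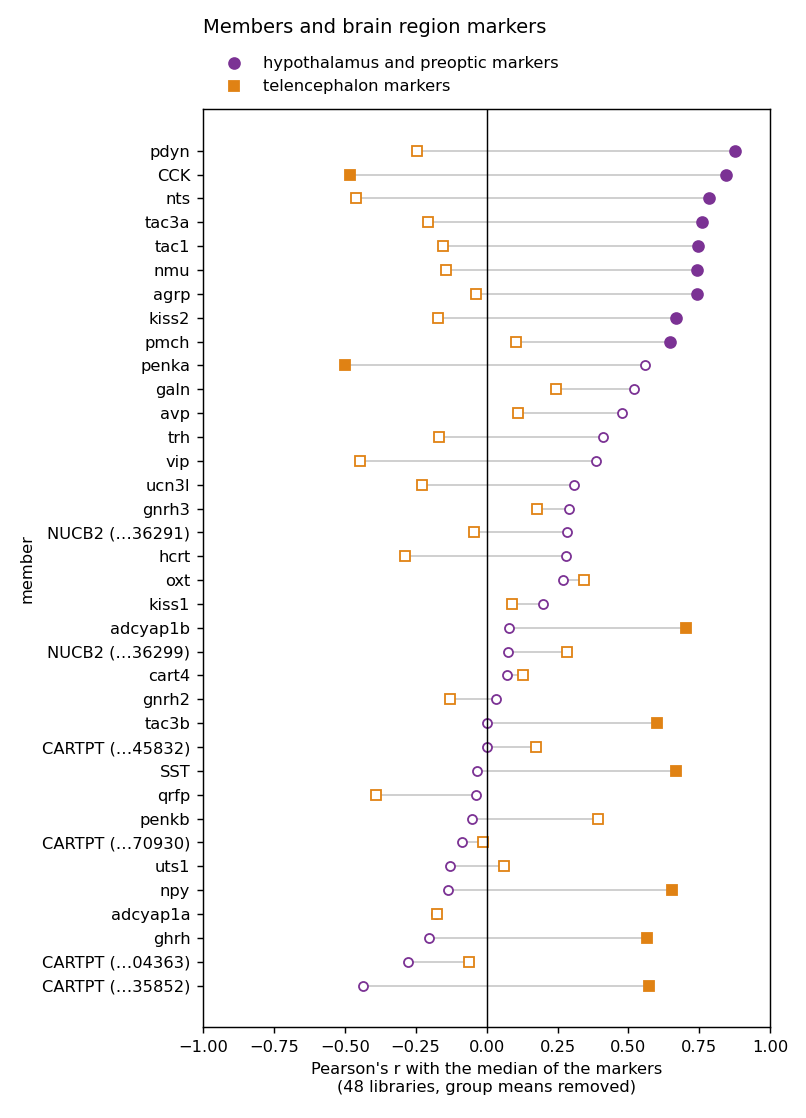
Pearson's r (x axis) of each of the 36 members (y axis, ordered by the hypothalamus value) with the median of hypothalamus and preoptic markers (circles) and of telencephalon markers (squares), over 48 libraries with group means removed. Filled symbols passed a permutation p of 0.05 adjusted over all genes. The 9 filled circles run from pdyn to pmch, while SST, npy, adcyap1b and tac3b have filled squares to the right of 0.

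Among all 630 pairs of members, 67 passed (permutation test within groups, adjusted over 630), 65 of them positive, and 29 of 36 members had at least 1 such partner. An r of at least 0.5 was reached by 58 of the 630 pairs (9.21%) and by 3.23% of the pairs among all 19062 genes, and an r of -0.5 or lower by 1 (0.159%) and by 2.81%. The closest pair was oxt with avp (r = 0.825, rho 0.745, permutation test, adjusted p = 0.000525), which was 0.919 within F0, 0.654 within F1 and 0.792 within F2, and 0.745 without the 2 libraries farthest from the median of oxt. CCK with nts followed (0.816), then pdyn with CCK (0.787), tac1 with nmu (0.778) and pdyn with nts (0.778). The feeding genes agrp and pmch, both made by hypothalamic neurons, gave 0.758. In this set kiss2 had the most partners, 11.

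Another set joined npy with penkb (r = 0.735), SST (0.707), ghrh (0.646) and tac3b (0.628), of which npy, SST, ghrh and tac3b also passed with the telencephalon markers. A further set joined 3 genes of few counts, gnrh2, CARTPT (ENSDARG00000070930) and CARTPT (ENSDARG00000104363). Its CARTPT genes gave r = 0.665 with each other (rho 0.576, permutation test, adjusted p = 0.00283). The members with no partner were gnrh3, CARTPT (ENSDARG00000045832), cart4, uts1, qrfp and both NUCB2 IDs, 7 in all. Of the members that differed between the sexes, CCK had 10 partners, galn 3 (oxt, avp and SST) and CARTPT (ENSDARG00000045832) none.

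**Figure D5:**
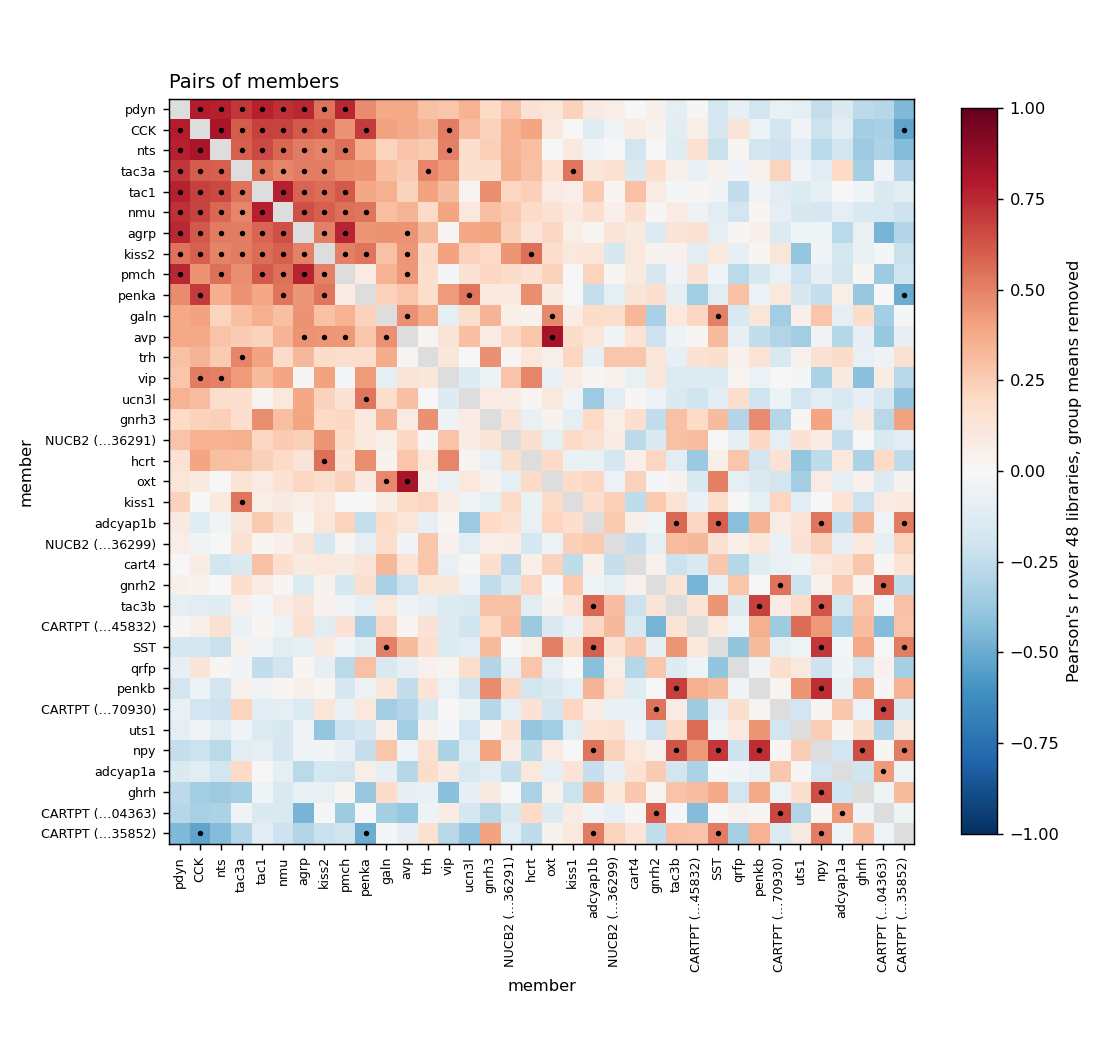
Pearson's r (colour) between each pair of the 36 members over 48 libraries with group means removed; both axes list the members in the order of their relation to the hypothalamus markers, and grey marks a member with itself. Dots mark the 67 pairs at an adjusted permutation p under 0.05. The block at the top left runs from pdyn to pmch, and the dots toward the lower right join npy with SST, penkb, tac3b, ghrh and adcyap1b.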

How the data were processed

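Whole brains of 48 adult zebrafish were sequenced as paired reads, per the labels' protocols. The deposited files hold raw read counts per Ensembl gene, made by the authors with STAR 2.7 and HTSeq 0.11.2 on GRCz11 (danRer11), per the submitters' processing notes, which also name DESeq2 1.24.0. Reads of overlapping or antisense genes cannot be told apart, since the strand setting is not given in the sources used here, and reads shared by near-identical copies may be missing. Lines that name no gene (63.4 to 68.7% of each file's total) stayed out of library sizes and tests. No library duplicated another of its group (chi-square per degree of freedom at least 4.78).

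The members, gene lists and tests were chosen with earlier results of these data known. Symbols came from a table of gene names and from RefSeq gene synonyms. edgeR 4.0.16 in R 4.3.3 (filterByExpr with a minimum count of 10, TMM, robust glmQLFit and glmQLFTest) fitted group means to the 16 libraries of each generation and to all 48 together, and p-values were adjusted by Benjamini-Hochberg over all genes tested (18081, 18094, 17505 and 19062), with calls under 0.05. Standard errors of log2 fold changes come from the F statistic. Levels are CPM with TMM factors over all 48 libraries, as mean ± SD. Each library's name joins its group to its label's number. The edgeR fits were tried on simulated counts that gave every gene the same spread between fish, unlike the members. The correlation steps were not simulated. DESeq2 1.42.0, limma voom 3.58.1, RLE factors, other filters and left-out libraries were tried. Members were named by rule: those called in any contrast, the 1 of smallest p in each direction of the 6 lineage contrasts, and up to 4 of smallest p per direction between the sexes (19 members); other members and genes were named after their values were seen. Correlations used log2(CPM + 0.5) less the group mean. Their p-values were adjusted over all genes for the markers and over 630 for pairs. The adjustment over all genes, tests of sex by generation and by arm, member pairs and the other regions' markers were added after the data were seen. Intervals and adjusted p-values cover the spread between fish.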

Additional observations from a re-analysis of the deposited data

Results flagged for a closer look

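Of 118 combinations of a named member and a group, 11 had 1 library far from the other 3 of its group, where chance flags about 1 in 20 (5.9 of 118). For galn, F0_M_SCA 2 was at 80.6 CPM with the other 3 between 25.9 and 34.6, and F2_M_SCA 5 was at 12.9 CPM with the others between 54.4 and 62.6. For CARTPT (ENSDARG00000045832), F1_F_PH 2 was at 83.7 CPM (others 93.4 to 94.6), F1_M_PH 4 at 101.3 CPM (others 144.9 to 152.8), F1_M_SCA 10 at 131.9 CPM (others 122.0 to 122.9) and F2_F_PH 4 at 127.0 CPM (others 96.7 to 98.5). The F2 control female F2_F_SCA 9 was low for nmu, at 2.26 CPM (others 4.87 to 5.32), and high for qrfp, at 6.62 CPM (others 3.51 to 3.86). The F0 exposed female F0_F_PH 10 was low for tac1, at 34.5 CPM (others 58.0 to 60.4), and for vip, at 33.6 CPM (others 41.8 to 42.4); its hypothalamus score was -0.67 log2 units, the lowest of its group. For uts1, F1_F_SCA 4 was at 75.5 CPM (others 58.5 to 61.3).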

How the results depend on the processing

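The calls of galn and CARTPT (ENSDARG00000045832), higher in males over all libraries, held in each of 48 fits that left out 1 library, galn between -1.12 and -0.97 log2 units and CARTPT (ENSDARG00000045832) between -0.34 and -0.27. Calls between the sexes over all libraries ranged from 2 to 5 when 1 library was left out, and were 5 with DESeq2, 1 in PH libraries only (CARTPT (ENSDARG00000045832) at -0.28, edgeR adjusted p = 0.372, and CCK at -0.33, 0.376), 2 in control libraries only (CCK at -0.25, 0.136) and 1 among the 28 IDs found by symbol alone or with a dropped letter. In F0 they ranged from 2 to 3, were 0 among the PH libraries, all on lane L4, and 1 among the 28 IDs, and CARTPT (ENSDARG00000045832) had an adjusted p of 0.0552 there in a fit of all 48 libraries (edgeR). In F1 they ranged from 1 to 2, and were 3 with DESeq2, 3 in a fit of all 48 libraries and 0 among the 28 IDs. In F2 DESeq2 gave 2. The 28 IDs leave out galn and the CARTPT IDs, so of galn, CARTPT (ENSDARG00000045832) and CCK only CCK could be counted there. Members that passed with the hypothalamus markers numbered 15 when adjusted over the 36 members, 12 of them without the 2 farthest libraries, and 9 over all genes.

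For the lineage, DESeq2 called 2 in F1 males and 1 over both sexes of F1, and a fit of all 48 libraries called 1 in F1 males. Leaving out 1 library gave 0 to 2 calls over both sexes of F1 (2 without F1_M_PH 7), 0 to 1 in F2 females and over both sexes of F2 (without F2_F_SCA 9), 0 to 1 over the descendants (without F1_F_SCA 6) and 0 to 1 for the male contrast by generation. That last test gave 1 with DESeq2 and 1 with RLE factors, in each case CARTPT (ENSDARG00000035852). Unadjusted counts in F1 males ranged from 9 to 16. The small F2 sex folds of 2 members crossed 0, CARTPT (ENSDARG00000045832) with limma voom (0.0085) and between -0.19 and 0.0148 when 1 library was left out, and CCK with DESeq2 (0.0073), limma voom (0.0092) and RLE factors (0.0067) and between -0.0475 and 0.0673; no other named value reversed under the settings run. The cause of these shifts was not tested.

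In F0 females the replicate block on the shared numbers 15 and 16 left 0 members called, with CARTPT (ENSDARG00000045832) at 0.17 and adcyap1b at -0.21; the deviations of same-numbered libraries correlated at 0.121 and 0.127 across genes, and nothing in the labels says that the numbers pair fish. Some members of few counts spread widely between fish within a generation, by 38.5 to 48.7% for hcrt, 35.6 to 45.9% for ghrh and 64.1 and 90.1% for gnrh3. Member medians were 22.4 to 31.8%. Few counts and wide spread did not always go together: qrfp, with 2016 counts, gave 15.3 to 24%, and oxt, with 59755 counts, 43.9 to 81.8%. For members of few counts or wide spread, a p that missed the threshold does not show equal levels.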
